A study of Mus musculus with 12 samples.

Results

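Integrins and the proteins that join them to the actin skeleton at focal adhesions were examined in cultured mouse podocytes before and after fluid flow shear stress. The 41 members were every gene whose symbol begins with Itga or Itgb, 23 in all, and 18 of 20 further focal adhesion genes named one by one, out of 14860 genes that the array annotation names from rows with 1 symbol. Ptk2 and Tns3 were named too but have no row with 1 symbol, and 4 integrin-named genes that appear only in rows with several symbols (Itga1, Itga4, Itgax and Itgb1bp2) were not used. The members comprise 13 integrin alpha subunits, 8 beta subunits, 2 genes that carry integrin in their name only, 6 linkers from integrin to actin, 3 members of the integrin-linked kinase (ILK) complex, 4 scaffold and kinase genes and 5 genes of the zyxin and actin regulator group.

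The cells were a conditionally immortalized podocyte line derived from the Immortomouse, in which a thermosensitive T antigen (tsA58) drives growth, and all groups were differentiated without γ-interferon and used on day 14. Shear of 2 dynes/cm2, produced by a flow of 75 ml/min, lasted 2 h. The 4 groups of 3 arrays each were unsheared cells kept in the same hood and incubator (Control), cells harvested when shear ended (End), and sheared cells returned to their medium for 2 h (Post-2hr) or 24 h (Post-24hr). No harvest time is recorded for the Control cells, the line is 1 transformed culture system, and nothing in the labels says whether the 3 numbered samples of each group are independent cultures. The p-values therefore reflect how far these samples scatter, and that scatter may be technical only.

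Integrins are heterodimers of an alpha and a beta subunit that bind extracellular matrix outside the cell and, through adaptor proteins, actin inside it. Talin and kindlin bind the beta tail and switch the receptor to its active form, vinculin and α-actinin tie talin to actin filaments, and the ILK, PINCH and parvin complex adds a further link. Paxillin, p130Cas and Src pass on signals from the adhesion. In the podocyte, the epithelial cell that covers the glomerular capillary, α3β1 is the main receptor for the laminin of the glomerular basement membrane, and its loss leads to detachment of foot processes and proteinuria.

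Each array gave 1 log2 expression value per gene, and array medians lay between 6.928 and 7.115. Of 10 podocyte markers listed, 6 were measured here. Among these, levels averaged over the arrays were 12.44 for Cd2ap, 9.89 for Podxl, 7.35 for Wt1 and 6.64 for Nphs1. Tcf21 averaged 5.98 and Ptpro 4.68. Nphs1, Tcf21 and Ptpro thus lay below the array medians, and Ptpro also below the lower quartile of row means, 5.27. Of 8 genes of dividing cells, 6 were measured, and their mean per array was 7.08 to 7.54 on the replicate 1 arrays and 8.18 to 9.59 on the replicate 2 and 3 arrays. The replicate 1 array of every group stood apart in this way across the transcriptome, with 30.5% of all 23332 rows different from replicates 2 and 3 (limma). Each shear comparison is therefore also given with replicate 1 set apart, that is, with replicate 1 against replicates 2 and 3 as an added term of the fit, and as the change within replicate 1 and within replicates 2 and 3.

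The subunits of the podocyte laminin receptor were well above the array medians in every sample. Itgb1, the common beta subunit, read 12.22, 12.69 and 12.62 in the Control replicates 1, 2 and 3, and Itga3, its laminin-binding partner, read 11.07, 11.61 and 11.59. Vcl, the gene of vinculin, read 12.06, 12.65 and 12.61 in the same arrays. In all 3 genes the replicate 1 array was the low one. Across the members, 28 had a mean level at or above the median row, and 4 alpha subunits (Itga2, Itga8, Itgae and Itgam) lay below the lower quartile of row means, 5.27. Because probes differ between genes, levels are not ranked between members, and no detection calls were used.

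**Figure D1:**
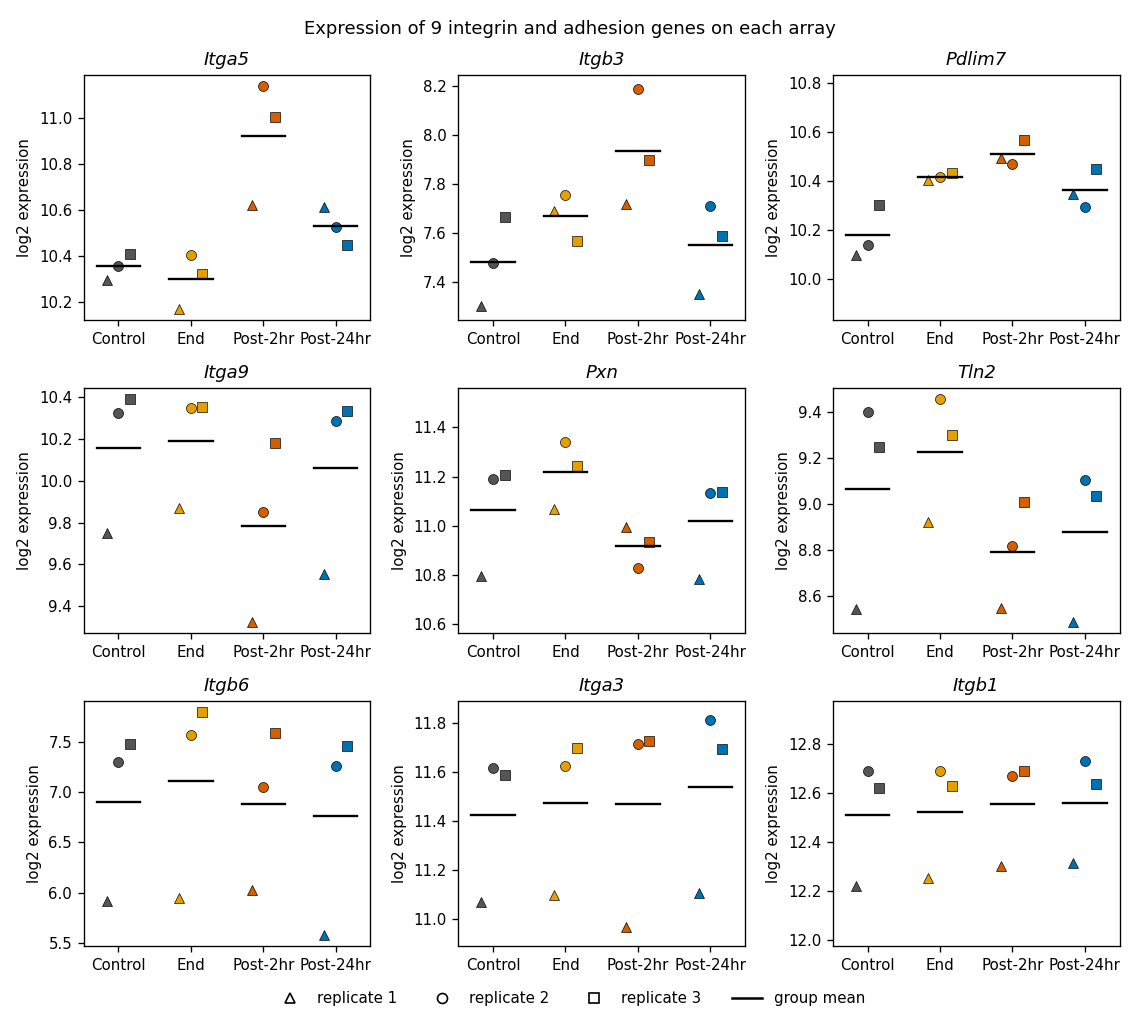
Log2 expression of 9 members on each of the 12 arrays, with 1 panel per gene and its own vertical scale. Triangles, circles and squares are replicates 1, 2 and 3 and bars are group means: all Post-2hr points for Itga5, Itgb3 and Pdlim7 lie above all Control points, while the replicate 1 triangle is the lowest point in every group for Itgb6, Itga3, Itgb1, Itga9 and Tln2.

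The comparison of Post-2hr with Control asks which adhesion genes differed 2 h after shear had ended. The members furthest above Control were Itga5, the alpha subunit of the fibronectin receptor α5β1, Itgb3, the beta subunit of the vitronectin receptor αvβ3, and Pdlim7, a PDZ and LIM domain protein of actin stress fibres. None of the 41 members passed the test at an adjusted p of 0.05 (limma, Benjamini-Hochberg over all rows). Of all rows 0.0171% passed, which is 4 rows. At an unadjusted p under 0.05 there were 3 members, Itga5, Itgb3 and Pdlim7, beside 5.64% of all rows. With replicate 1 set apart, 0 members passed at the adjusted threshold beside 0.154% of rows, and 5 members (Itga5, Itgb3, Pdlim7, Itga9 and Tln2) had an unadjusted p under 0.05 beside 12.3%. When arrays were weighted by their fit to the model, 5 members passed, beside 16.6% of rows: Itga5, Itgb3, Pdlim7 and Vasp higher and Pxn lower. Those weights were lowest, 0.339 to 0.538, on the replicate 1 arrays. They were highest on Control replicate 2 (5.86) and Post-2hr replicate 3 (5.27). The other Control and Post-2hr arrays had weights of 0.339 to 0.645, so the weighted comparison rests mostly on 1 array of each group.

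Itga5 read 10.30, 10.36 and 10.41 in Control and 10.62, 11.14 and 11.00 at Post-2hr. All Post-2hr arrays were above all Control arrays, and replicate 1 was the lowest of its group at Post-2hr. The means were 10.36 ± 0.06 and 10.92 ± 0.27 (SD, n = 3), a difference of 0.57 ± 0.13 (SE, 95% interval 0.28 to 0.86) or 1.48-fold, with an adjusted p of 0.482 (limma). With replicate 1 set apart the adjusted p was 0.111. The difference was 0.32 within replicate 1 and 0.69 within replicates 2 and 3.

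Itgb3 read 7.31, 7.48 and 7.67 in Control and 7.72, 8.19 and 7.90 at Post-2hr. The groups did not overlap, although the highest Control and the lowest Post-2hr array were close. The difference was 0.45 ± 0.15 (95% interval 0.12 to 0.78), or 1.37-fold, with an adjusted p of 0.692 (limma) and of 0.17 with replicate 1 set apart. It was 0.41 within replicate 1 and 0.47 within replicates 2 and 3. Itgav, the alpha partner of Itgb3, read 11.42, 11.73 and 11.61 in Control and 11.46, 11.70 and 11.75 at Post-2hr, and its groups overlapped.

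Pdlim7 read 10.10, 10.14 and 10.30 in Control and 10.50, 10.47 and 10.57 at Post-2hr. The groups were separate, and the spread at Post-2hr was small. The means were 10.18 ± 0.11 and 10.51 ± 0.05 (SD, n = 3), a difference of 0.33 ± 0.08 (95% interval 0.14 to 0.52) or 1.26-fold, with an adjusted p of 0.536 (limma) and of 0.137 with replicate 1 set apart. It was 0.39 within replicate 1 and 0.30 within replicates 2 and 3.

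In all, 5 of the 41 members had every Post-2hr array above every Control array, beside 4.08% of all rows, and 0 had every array below, beside 5.01%. The other members of that kind were Itgb4, the partner of α6 in hemidesmosomes, with a difference of 0.08, and the dim leukocyte subunit Itgam, with 0.14 ± 0.09 (SE). Markers of leukocytes and platelets, cells in which Itgam and Itgb3 are also known, were measured for 8 of 11 listed genes. Their mean per array was 5.99 to 6.07 in Control and 6.17 to 6.21 at Post-2hr, all 8 group means were higher at Post-2hr with a median difference of 0.15, and 0 passed the test. Most other marker lists were mostly higher at Post-2hr too. Means were higher in 4 of 4 kidney tubule genes (median 0.10) and 5 of 6 podocyte genes (0.10). They were also higher in 5 of 6 endothelial genes (0.07) and 3 of 5 mesangial and fibroblast genes (0.17). Genes of dividing cells went the other way, with 1 of 6 means higher (median −0.14). Over all genes 48.2% of means were higher at Post-2hr. The defining leukocyte gene Ptprc lay at 3.97, below the lower quartile of rows, as did Adgre1 (4.30) and Pf4 (4.41). Cd3e (6.09) and Gp9 (5.94) lay below the array medians. Of the same list, Cd68 (8.13), Cd14 (8.01) and Csf1r (7.81) lay above the array medians, so leukocyte markers were not all dim. The part of such cells in the Itgb3 and Itgam values was not tested, and in bulk samples more RNA per cell and more cells of a type cannot be told apart.

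**Figure D2:**
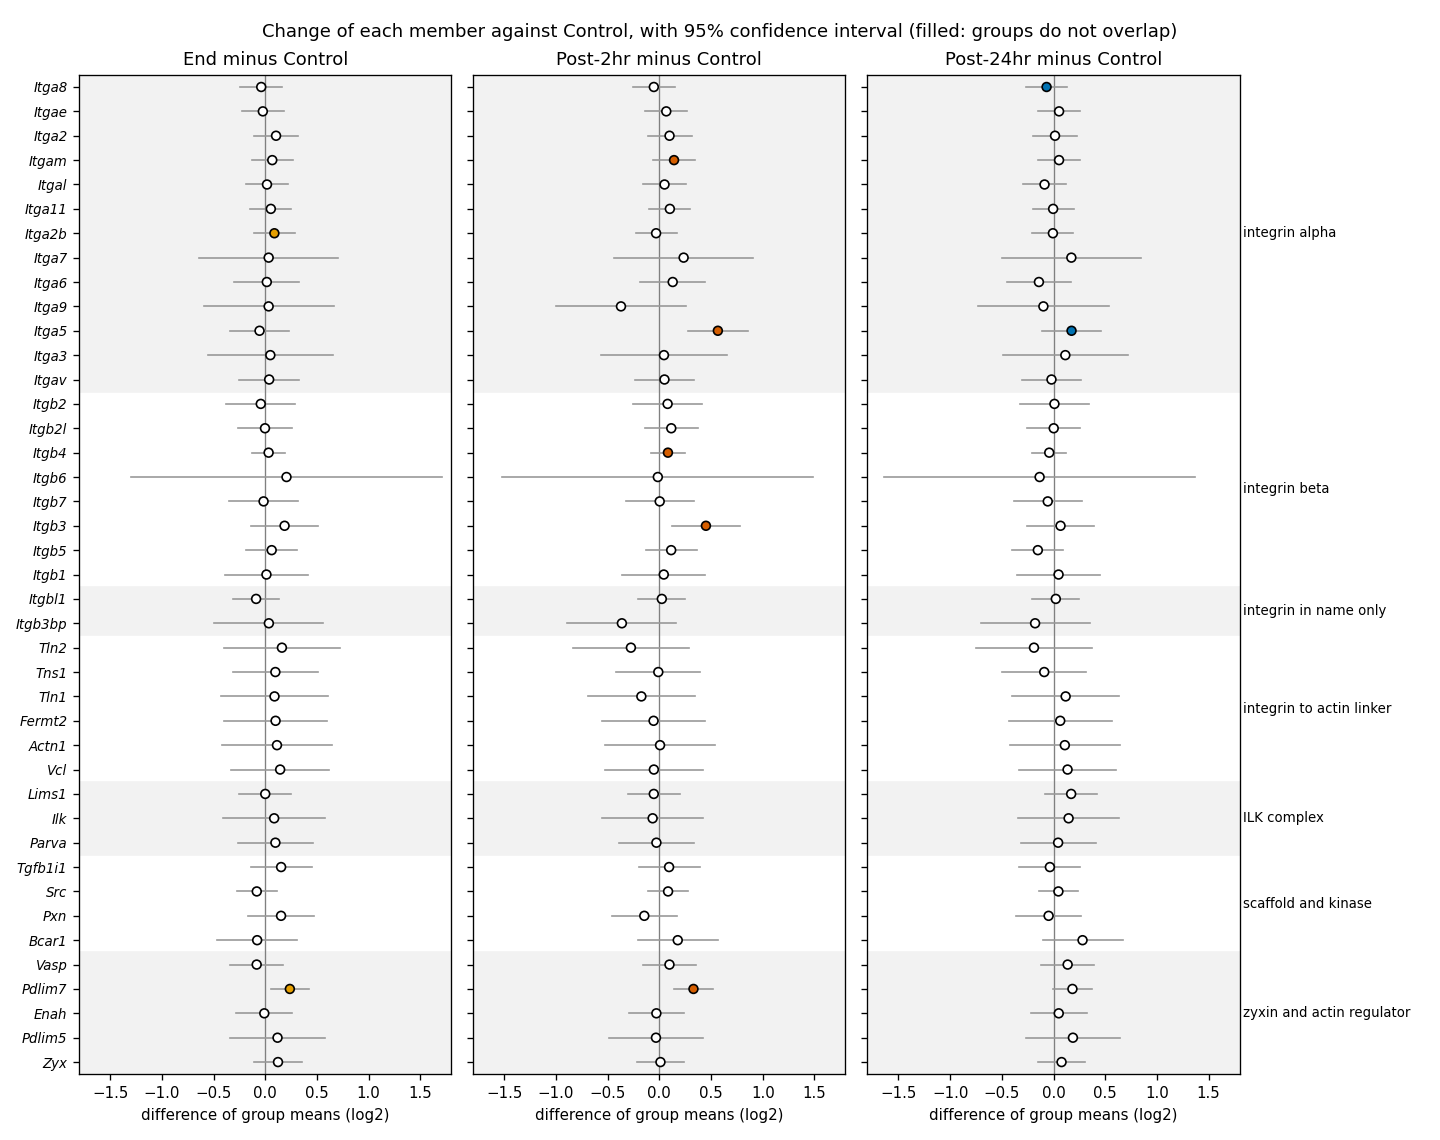
Difference of each member's group mean from Control (log2, horizontal axis) at End, Post-2hr and Post-24hr, with 95% confidence intervals from the limma fit and genes grouped by role. Filled points mark members whose 3 arrays do not overlap with the 3 Control arrays: 2 at End, 5 at Post-2hr and 2 at Post-24hr.

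Below Control at Post-2hr, the member with the largest difference was Itga9, the alpha subunit of a tenascin-C and VCAM1 receptor. It read 9.75, 10.33 and 10.39 in Control and 9.33, 9.85 and 10.18 at Post-2hr. The groups overlapped because replicate 1 was low in both, yet each Post-2hr array lay below the Control array of the same number. The difference was −0.37 ± 0.28 (SE, adjusted p = 0.964, limma), −0.43 within replicate 1 and −0.34 within replicates 2 and 3. Setting replicate 1 apart brought the standard error to 0.10 and the adjusted p to 0.177. Itgb3bp, a centromere protein that is no integrin, differed by −0.36 ± 0.24 (SE). Its numbered arrays did not move together, at −0.24, −1.10 and 0.25 in replicates 1, 2 and 3.

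Tln2, a talin that couples beta tails to actin, read 8.55, 9.40 and 9.25 in Control and 8.55, 8.82 and 9.01 at Post-2hr. Its replicate 1 arrays were level while replicates 2 and 3 were lower by −0.41, and the fitted difference was −0.28 ± 0.25 (SE). Pxn, the gene of the scaffold paxillin, read 10.80, 11.19 and 11.21 in Control and 10.99, 10.83 and 10.93 at Post-2hr. Here the 2 sets of arrays went opposite ways, 0.20 within replicate 1 and −0.32 within replicates 2 and 3.

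The test of whether the change differed between replicate 1 and the other replicates called 0 members and 0% of rows in each comparison (limma). At an unadjusted p under 0.05 it had 3 members for Post-2hr minus Control, beside 4.50% of rows, and 0 for End and Post-24hr minus Control, beside 5.26% and 5.40%. Between harvests it had 1 for Post-2hr minus End (Bcar1, beside 5.74%) and 4 for Post-24hr minus Post-2hr (Itga5, Itga7, Pxn and Tns1, beside 7.26%). The 3 at Post-2hr against Control were Pxn (unadjusted p = 0.0121), Bcar1 (0.0325), the stretch-responsive scaffold p130Cas, which differed from Control by 0.44 in replicate 1 and 0.05 in replicates 2 and 3, and Itga7 (0.0446), a laminin-binding subunit, by −0.16 and 0.43. That fit has only 4 residual degrees of freedom.

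**Figure D3:**
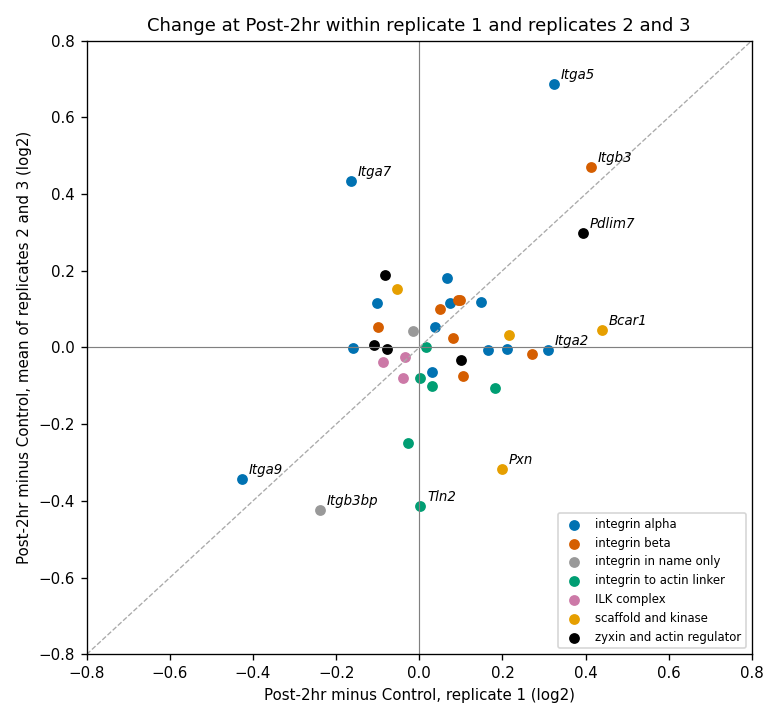
Difference between Post-2hr and Control for each of the 41 members (log2), within replicate 1 on the horizontal axis and as the mean of replicates 2 and 3 on the vertical axis, coloured by role. Itga5, Itgb3 and Pdlim7 lie in the upper right and Itga9 in the lower left. Pxn, Tln2, Itga7, Bcar1 and Itga5 are among the members away from the dashed line of equal differences.

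By role, 10 of 13 alpha and 7 of 8 beta means were higher at Post-2hr than in Control, beside 48.2% of all genes. By contrast, 5 of 6 linkers and 3 of 3 ILK complex means were lower. These counts are small differences: the median over all members was 0.04, beside −0.01 over all genes. The linkers' median was −0.05, with 0.01 within replicate 1 and −0.10 within replicates 2 and 3. The podocyte laminin receptor subunits differed from Control by 0.04 for Itga3 (95% interval −0.56 to 0.65) and 0.04 for Itgb1 (−0.36 to 0.44). Tln1, the talin of most cells, differed by −0.17 (−0.69 to 0.34), Ilk by −0.07 (−0.56 to 0.43) and Vcl by −0.05 (−0.52 to 0.42). These intervals hold the spread between replicate 1 and the other arrays. With replicate 1 set apart they were −0.11 to 0.20 for Itga3, −0.09 to 0.18 for Itgb1, −0.35 to 0.00202 for Tln1, −0.22 to 0.09 for Ilk and −0.21 to 0.11 for Vcl.

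At the end of shear, 0 of 41 members passed (limma), as did 0% of all rows, and 1 member, Pdlim7, had an unadjusted p under 0.05 beside 3.62% of rows. Pdlim7 read 10.40, 10.42 and 10.44 at End, a narrow band above all Control arrays. The difference was 0.24 ± 0.08 (95% interval 0.05 to 0.42), or 1.18-fold, with an adjusted p of 1 (limma) and of 0.522 with replicate 1 set apart. It was again the 1 member with an unadjusted p under 0.05 with replicate 1 set apart, beside 7.18% of rows. Itga2b, the platelet alpha subunit, was the only other member whose End arrays all exceeded Control, by 0.09 ± 0.09 (SE), and 0 members lay below, beside 4.69% and 2.94% of rows. Itga5 read 10.17, 10.41 and 10.32 at End and overlapped with Control.

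The 6 linkers (Tln1, Tln2, Vcl, Fermt2, Actn1 and Tns1) all had a higher mean at End than in Control, by a median of 0.11. None passed the test. The median was 0.27 within replicate 1 and 0.06 within replicates 2 and 3. Vcl, for example, read 12.37, 12.68 and 12.70 at End and differed from Control by 0.14 ± 0.21 (SE). Over all members 30 of 41 means were higher at End, beside 59.2% of all genes, with a median of 0.05 beside 0.02.

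After 24 h of recovery, 0 of 41 members passed the test (limma), as did 0% of rows, and 0 members had an unadjusted p under 0.05 beside 2.40% of rows. With replicate 1 set apart, 0 passed and 4 members (Bcar1, Lims1, Pdlim5 and Pdlim7) had an unadjusted p under 0.05, beside 5.13% of rows. Itga5 read 10.61, 10.53 and 10.45, closer to Control than at Post-2hr but still above all its arrays, a difference of 0.17 ± 0.13 (95% interval −0.12 to 0.46; adjusted p = 1, limma). It was the 1 member with all arrays above Control, and dim Itga8 was the 1 member with all arrays below, by −0.07, beside 2.70% and 2.91% of rows. Bcar1 had the largest positive difference, with arrays at 11.52, 11.76 and 11.68 against 11.09, 11.46 and 11.56. Each array was above the Control array of its number, the groups overlapped, and the difference was 0.28 ± 0.17 (95% interval −0.11 to 0.67).

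The 3 members of the ILK complex, Ilk, Parva (α-parvin) and Lims1 (PINCH1), had higher means at Post-24hr than in Control, as did all 5 genes of the zyxin and actin regulator group, with medians of 0.15 and 0.14. Among the latter, Enah was higher within replicate 1 only (0.19, against −0.02 within replicates 2 and 3). Other roles were mixed, with higher means in 6 of 13 alpha, 4 of 8 beta, 4 of 6 linker and 2 of 4 scaffold and kinase genes. The largest negative difference was in Tln2, −0.19 ± 0.25 (SE). Lims1 read 11.29, 11.04 and 11.05 in Control and 11.49, 11.23 and 11.18 at Post-24hr, a difference of 0.17 ± 0.11 (SE) that was 0.19 within replicate 1 and 0.16 within the others. The median over all 41 members was 0.04, beside 0.00 over all genes, of which 48.9% had a higher mean at Post-24hr. Itga3 differed from Control by 0.11 (95% interval −0.49 to 0.72) and Itgb1 by 0.05 (−0.35 to 0.45).

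Successive harvests were also compared, and they share the Post-2hr arrays with the comparison above. From End to Post-2hr, 0 members passed (limma), beside 0.0257% of rows, and 1 had an unadjusted p under 0.05, beside 6.24%. With replicate 1 set apart the counts were 0 (0.154% of rows) and 8 (13.3%), the 8 being Itga5, Itgb3 and Bcar1 with higher means and Itga9, Pxn, Tln1, Tln2 and Vcl with lower means. The member with an unadjusted p under 0.05 in the fit without that term was Itga5, higher at Post-2hr by 0.62 ± 0.13 (95% interval 0.33 to 0.91) or 1.54-fold, with an adjusted p of 0.3 (limma) and of 0.077 with replicate 1 set apart. It was higher in each of the 3 numbered arrays. With array weights Itga5 passed (adjusted p = 0.00679, limma), the 1 member to do so, beside 1.62% of rows.

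Pxn read 11.07, 11.34 and 11.24 at End, and it was the 1 member with every Post-2hr array below every End array, beside 7.86% of rows. The difference was −0.30 ± 0.14 (95% interval −0.61 to 0.02; adjusted p = 0.825, limma). All 6 linkers had lower means at Post-2hr than at End, by a median of −0.18 (0 passed). Tln2 differed most, by −0.44 ± 0.25 (SE), −0.38 within replicate 1 and −0.47 within the others. In the other direction, 5 members (Bcar1, Itga5, Itgae, Pdlim7 and Src) had all Post-2hr arrays above End, beside 4.10% of rows.

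From Post-2hr to Post-24hr, 0 members passed (limma), beside 0% of rows, and 3 (Itga5, Itgb3 and Itgb5) had an unadjusted p under 0.05, beside 5.71%. With replicate 1 set apart the counts were 0 (0.00857% of rows) and 10 (13.1%). All Post-24hr arrays lay below all Post-2hr arrays for 5 members, Itga5, Itgb3, Itgb4, Itgb5 and Pdlim7, beside 4.55% of rows, and 0 members lay above, beside 5.68%. Itga5 differed by −0.39 ± 0.13 (95% interval −0.68 to −0.10; adjusted p = 0.736, limma), with −0.01 within replicate 1 and −0.58 within replicates 2 and 3. Itgb3 differed by −0.38 ± 0.15 (SE), with −0.36 and −0.39 within the same sets. Over the 4 groups together, the F test gave the lowest p among members for Itga5 (adjusted p = 0.585, limma, and 0.141 with replicate 1 set apart), and 0 members passed beside 0.00857% of rows, or 0.0300% with replicate 1 set apart. At an unadjusted p under 0.05 the F test had 2 members, Itga5 and Pdlim7, beside 5.46% of rows. With array weights 3 members, Itga5, Pdlim7 and Itgb3, passed it, beside 7.34%.

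The larger pattern in the adhesion genes lay between the numbered arrays. With the group means kept in the model, 21 of 41 members differed between replicate 1 and replicates 2 and 3 (limma, Benjamini-Hochberg), 18 lower and 3 higher in replicate 1. Of all rows 30.5% differed, 11.0% lower and 19.5% higher, so the members were mostly lower where the called rows as a whole were mostly higher. In 19 members replicate 1 was the lowest array of every group, beside 11.9% of rows, and in 3 it was the highest of every group, beside 18.9%. The median difference over the members was −0.17, beside −0.03 over all genes. What sets the replicate 1 arrays apart was not tested, and the labels give no batch. This split was chosen with earlier results of these data known. The replicate 1 arrays also deviated together (correlations of 0.522 to 0.723), and the labels do not say whether they are independent cultures. The p-values between the replicates therefore measure scatter among arrays and not among cultures.

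The level of a row bears on that count. Among rows at or above the median level 47.9% were called, 16.6% lower and 31.4% higher, and of the 28 members there 17 were lower and 2 higher. Among dimmer rows 13.0% were called, and of the 13 members there 1 was lower and 1 higher. The genes of dividing cells, with 5 of 6 measured members lower in replicate 1 by a median of −1.60, moved with this difference. Markers of other cell types were called in both directions: 2 of 8 leukocyte and platelet genes higher (Cd68 by 2.20, Cd14 by 0.51) and 2 lower, among them Csf1r at −1.43, 1 of 6 podocyte genes higher (Cd2ap by 0.27) and 1 lower (Podxl at −1.19), and 1 of 5 mesangial and fibroblast genes higher (Des by 0.58) and 1 lower (Pdgfrb at −0.53). Of 4 kidney tubule genes 1 was lower, and of 6 endothelial genes 0 were called. The part of any of these in the members' difference was not tested.

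Among the integrin subunits, 4 alpha and 2 beta genes were lower in replicate 1 and 1 of each was higher. Itgb6, which pairs with αv and activates latent TGF-β in epithelia, read 5.58 to 6.02 on the replicate 1 arrays and 7.05 to 7.80 on the others. The arrays did not overlap, and the difference was −1.57 ± 0.12 (SE, 95% interval −1.84 to −1.30), 2.98-fold lower in replicate 1, with an adjusted p of 3.74e-05 (limma). Itga3 read 10.97 to 11.11 against 11.59 to 11.81, a difference of −0.62 ± 0.05 or 1.54-fold (adjusted p = 5.68e-05, limma). Its partner Itgb1 read 12.22 to 12.31 against 12.62 to 12.73, a difference of −0.40 ± 0.04 or 1.32-fold. Itga9 (−0.63 ± 0.07), Itga7 (−0.62 ± 0.12) and Itgav (−0.24) were lower too.

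Itga6, which like Itga3 forms laminin receptors, went the other way. It read 9.64, 9.35 and 9.34 in Control, 9.65, 9.37 and 9.35 at End, 9.79, 9.38 and 9.55 at Post-2hr and 9.46, 9.24 and 9.20 at Post-24hr. Replicate 1 was the highest of every group, and the difference was 0.29 ± 0.05 (1.22-fold, adjusted p = 0.00182, limma). Itgb7, a lymphocyte subunit, was higher by 0.27 ± 0.07 (adjusted p = 0.0145, limma), a call lost after median centring (adjusted p = 0.0540), after quantile normalization (0.0594) and without the Control replicate 1 array (0.0741). Itgb2, a leukocyte beta subunit, was higher by 0.24 ± 0.08 without passing (adjusted p = 0.0589, limma), and Itgb5, another partner of αv, by 0.14 ± 0.07 (0.162). Itgb3 and Itga5, the subunits furthest above Control at Post-2hr, were not called between the replicates with all arrays and rows. Itgb3 was called as lower in replicate 1 after median centring, after quantile normalization, among rows at or above the 50th percentile of level, and without End replicate 1 or 3.

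**Figure D4:**
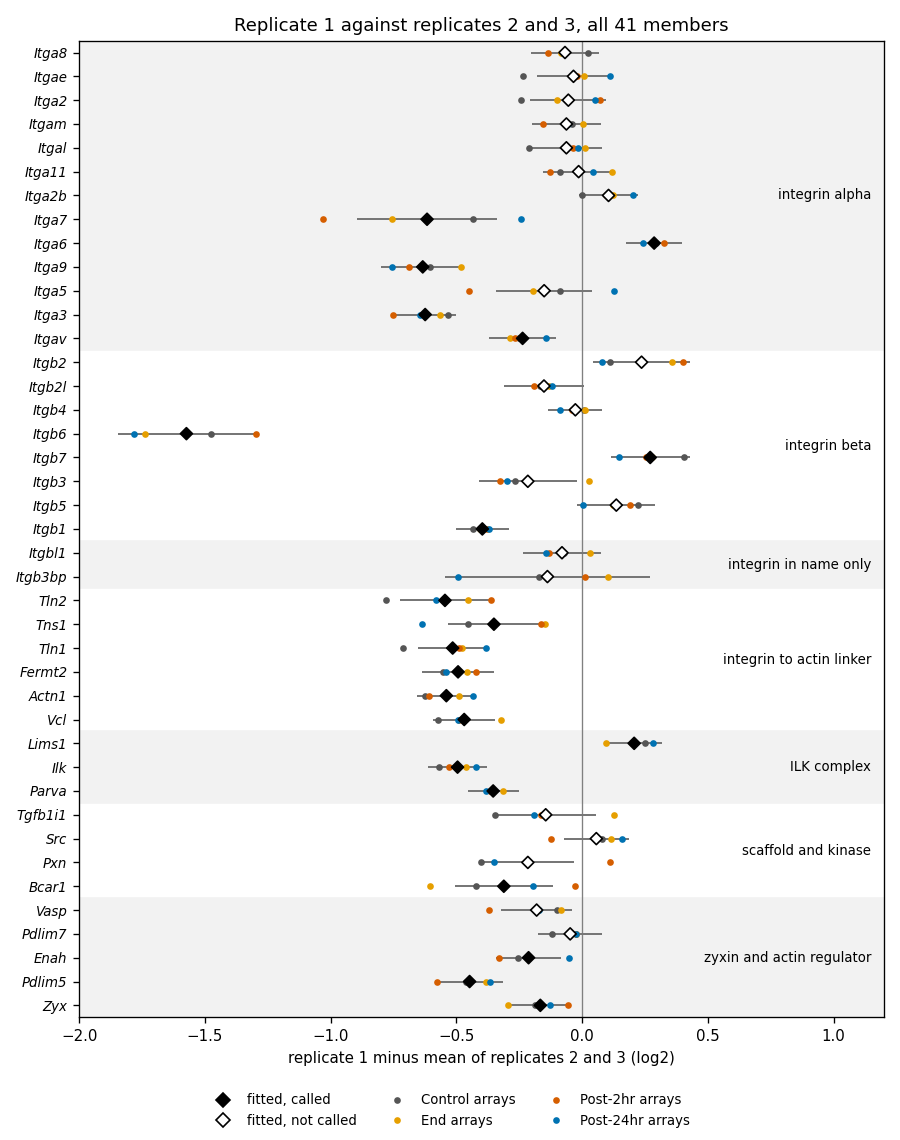
Replicate 1 minus the mean of replicates 2 and 3 (log2) for the 41 members, by role. Coloured points are the differences within each group, diamonds the fitted difference with its 95% interval, filled where called (21 members): all 6 linkers are filled and left of 0, and the filled diamonds right of 0 are Itga6, Itgb7 and Lims1.

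All 6 linkers were lower in replicate 1, with a median difference of −0.50. Actn1, the gene of α-actinin 1, differed by −0.54 ± 0.05 (adjusted p = 9.43e-05, limma), Tln1 by −0.51 ± 0.06 and Tln2 by −0.55 ± 0.08. Fermt2, the kindlin of focal adhesions, read 11.16 to 11.32 on the replicate 1 arrays and 11.57 to 11.87 on the others, a difference of −0.49 ± 0.06. Vcl read 12.06 to 12.37 against 12.49 to 12.76, a difference of −0.47 ± 0.05. Neither gene's replicate 1 arrays overlapped with the rest.

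In the ILK complex, Ilk (−0.50 ± 0.05) and Parva (−0.35) were lower and Lims1 was higher by 0.21 ± 0.05 (adjusted p = 0.00869, limma). Lims1 lost its call after median centring (adjusted p = 0.0714). Pdlim5, Enah and Zyx of the zyxin and actin regulator group differed by −0.45, −0.21 and −0.17, and Bcar1 was the 1 called gene of the scaffold and kinase group (−0.31). Without the Control replicate 1 array 17 members were called, and Bcar1, Enah, Itgb7 and Zyx were not among them. Bcar1 was also lost without End replicate 1 and Enah without Post-2hr replicate 1. Zyx was lost in 8 of the 12 fits that left out 1 array, those without any 1 of the Control arrays, any 1 of the End arrays, or Post-24hr replicate 1 or 3.

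Serum response factor (SRF), a regulator of cytoskeletal genes, binds the CArG box, and promoter windows were searched for it because the linkers moved together between the replicates. RefSeq windows of GRCm38.p6, from 250 bases before to 50 after each start, were available for 30 of the 41 members. The box was found in 3 of the 30, Fermt2, Itgb6 and Vcl, and in 1.63% of all 32851 windows. For this and the other motifs below, a member counts if any of its windows holds a match, whereas the share is per window. The count and the share are therefore unlike measures. The search followed from the linkers' difference and 2 of these 3 genes are linkers, so their lower values in replicate 1 are no support for the motif. The stretches around the box are shown 5′ to 3′ on the strand of the gene, with the box in capitals. They lie at chr14:45530235-45530294 (minus strand) for Fermt2, chr2:60673709-60673768 (minus strand) for Itgb6 and chr14:20929148-20929205 (plus strand) for Vcl.
Fermt2: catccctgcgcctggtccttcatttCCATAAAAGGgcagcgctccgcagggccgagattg
Itgb6: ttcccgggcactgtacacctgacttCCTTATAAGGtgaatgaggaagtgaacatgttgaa
Vcl: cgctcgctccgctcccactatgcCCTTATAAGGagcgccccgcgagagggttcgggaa

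The box begins 204, 50 and 227 bases before the start in Fermt2, Itgb6 and Vcl, and in Itgb6 it is in 1 of its windows. A match describes letters and not a bound site. Other motifs, also read on both strands, were the AP-1 site TGANTCA in 3 members (Itga3, Itga9 and Zyx) and 7.81% of windows, the early growth response site GCGNGGGCG in 6 (Actn1, Bcar1, Enah, Itga11, Src and Zyx) and 5.55%, the TEAD site GGAATG in 2 (Itgb1 and Vcl) and 14.7%, and the cyclic AMP response element TGACGTCA in 0 and 1.79%. The windows of Itga5 and Pdlim7 held none of these letters.

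Targets of SRF and its cofactor MRTF were measured for 13 of 20 listed genes. None passed in a comparison with Control (limma). At Post-24hr 13 of 13 means were higher, beside 48.9% of all genes, with a median of 0.18 beside −0.003. The median of the 13 was 0.35 within replicate 1 and 0.10 within replicates 2 and 3. In replicate 1, 11 of 13 were called lower and 0 higher, beside 11.0% and 19.5% of all rows and 16.6% and 31.4% of rows at or above the median level, with a median of −0.35. Cnn1, the gene of the smooth muscle actin-binding protein calponin, was lower by 1.68 ± 0.18 in size, or 3.19-fold (adjusted p = 0.000205, limma), and Tagln, the gene of transgelin, differed by −1.17 ± 0.19.

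The other focal adhesion and adaptor genes, 32 measured of 40 listed, had 0 called members in any comparison with Control. At Post-2hr 12 of 32 means were higher, beside 48.2% of all genes, with a median of −0.04. Ptpn12, a phosphatase that acts on p130Cas, differed by 0.43 ± 0.11 at Post-2hr (adjusted p = 0.536, limma). The largest negative differences of the list were in Kank1, −0.35 ± 0.18, and Lpp, −0.24 ± 0.20. Between the replicates 15 were called lower and 5 higher in replicate 1, beside 11.0% and 19.5% of all rows. Lasp1, a LIM and SH3 protein of actin adhesions, differed by −0.69 (adjusted p = 5.92e-05, limma).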

How the data were processed

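RNA from each of the 12 samples was measured on the Mouse Exon 1.0 ST array of Affymetrix, whose exon probes were combined into 1 value for each gene, per the labels' protocols. The authors deposited log2 values, made with RMA and Partek per the submitters' processing notes, which give no versions. The sources used here do not give the genome build or settings. Arrays brought to 1 common distribution by RMA cannot show a change of total RNA in a cell. No value is missing from the 23332 rows, of which 14996 carry 1 symbol, 1019 several and 7317 none here. The brightest row on average stands for each gene.

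A linear model with a mean for each group was fitted to all rows and arrays (lmFit and eBayes of limma 3.58.1 in R 4.3.3, with 8 residual and 2.16 prior degrees of freedom). P-values were adjusted by Benjamini-Hochberg over all rows of a comparison, with a call at 0.05. Differences are first minus second group, with the model's SE and 95% intervals. The fit with replicate 1 set apart has 7 residual degrees of freedom. Alternatives included scalings, filters on level, array weights and leaving out each array. The number of arrays limits the precision. Members, gene lists and the set-apart fit were chosen with earlier results of these data known. By the rule for named genes, values are given for Itga3, Itgb1, Ilk, Tln1, Vcl and Pxn, for any called in a shear comparison, for up to 4 in each direction whose groups do not overlap with Control (2 between harvests), for the 5 highest and 5 lowest in replicate 1, for bright members of each role and for up to 2 genes in each direction of a further list. Other genes named were picked with their values in view.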

Additional observations from a re-analysis of the deposited data

How the results depend on the processing

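No call on a named member reversed its direction under the alternatives run. Array weights changed the calls: 5 members passed for Post-2hr minus Control (Itga5, Itgb3, Pdlim7 and Vasp higher, Pxn lower, beside 16.6% of rows), 1 for Post-2hr minus End (Itga5, beside 1.62%) and 3 in the F test (Itga5, Pdlim7 and Itgb3, beside 7.34%). Under those weights Itga5 differed from Control at Post-2hr by 0.64 (adjusted p = 0.00181, limma). The weights ran from 0.339 to 0.538 on the replicate 1 arrays and reached 5.86 on Control replicate 2 and 5.27 on Post-2hr replicate 3. The weighted comparison of Post-2hr with Control thus rests mostly on 1 array of each group. In all fits that left out 1 array, 0 members passed in a shear comparison.

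Without Control replicate 1 the median member difference was −0.0462 at End and −0.0437 at Post-24hr, where all arrays gave 0.05 and 0.04. Leaving out each array in turn gave medians of −0.05 to 0.12 at End, −0.02 to 0.09 at Post-2hr and −0.04 to 0.10 at Post-24hr, so the sign of these medians is not settled. The count of members called between replicate 1 and the others ran from 17 to 24 over all settings.

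Samples of the same number deviated together in replicate 1 (correlations of 0.522 to 0.723) and replicate 3 (0.25 to 0.535). In replicate 2 the correlations were weaker, 0.0294 to 0.342, with 5 of 6 pairs over 0.1. Of 12 arrays, 11 correlated best with an array of their own number. The main fit does not use the replicate number. With the replicate number as a block, 0 members passed in each shear comparison, and Itga5 at Post-2hr had an adjusted p of 0.14 (limma).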

Other observations

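Paralogues within the ILK complex differed in opposite directions between the replicate 1 arrays and the others. Lims1 (PINCH1) was higher in replicate 1 by 0.21 and its paralogue Lims2 (PINCH2) was lower, at −0.78 (adjusted p = 0.000812, limma). Parva (α-parvin) was lower, at −0.35, and Parvb (β-parvin) higher by 0.78 (adjusted p = 0.00134, limma). These genes were singled out after their values were seen.

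Among 23 measured of 31 listed integrin ligands, 13 were lower and 1, Col4a4, was higher in replicate 1, with a median of −0.31, beside 11.0% and 19.5% of all rows. Npnt, the gene of nephronectin, a basement membrane ligand of α8β1, differed by −2.26 ± 0.17 (SE), which is 4.78-fold lower (adjusted p = 3.13e-05, limma). The basement membrane collagen gene Col4a2 differed by −1.12, and Fn1, the fibronectin gene, by 0.03 (adjusted p = 0.645, limma). In the comparisons with Control 0 ligands passed (limma). At End 19 of 23 means were higher, beside 59.2% of all genes, with a median of 0.07 beside 0.02.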
